A study of Danio rerio with 36 samples.

Results

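The 9 genes described here belong to the Wnt pathway of the zebrafish. With earlier results of these data known, they were chosen by name for their roles in it. They are the ligands wnt5b and wnt10a, the cytoplasmic regulator axin2, the nuclear effectors lef1 and tcf7, and the secreted inhibitors or related proteins dkk1b, dkk3b, wif1 and notum1a. All 9 were among the 14781 gene symbols counted in each of 18 RNA-seq libraries of caudal fins or of cells sorted from them, and all 9 passed the filter on low counts in every replicated comparison. The caudal fin regrows after amputation, and time is given in days post amputation (dpa), with 0 dpa standing for an uninjured fin.

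Whole fins came from the outbred Ekkwill (EK) strain. Batch 1 gave 2 libraries at 0 dpa and 2 at 4 dpa. Batch 2 gave 3 libraries labelled 0 dpa and 3 labelled 1 dpa. Batch 3 gave 2 libraries of sorted fibroblasts, the cells that make connective tissue, at 0 dpa and 2 at 4 dpa, together with 4 single whole-fin libraries. Those 4 were a library of wild type fins and a library of LEN deletion fins at 0 dpa and the same pair at 2 dpa. LEN is an enhancer linked to the leptin gene lepb, and the deletion removes it. The fibroblast labels name Tg(tph1b:mCherry-NTR;ubi:switch) in one protocol and Tg(tph1b:creER;ubi:switch) in another, so the marking rests on the promoter of tph1b, a gene of fin fibroblasts. Those fins had been clipped, exposed to 4 µM tamoxifen for 12 h at 2 dpa and left to regrow for 2 months, so the 0 dpa fibroblasts came from fins that had already regenerated once. Each library pooled 15 fish, or 75 for fibroblasts, aged 4 to 12 months in one protocol and 3 to 12 months in another. In comparisons of groups with replicates the p-values measure the spread between 2 or 3 such pools. In bulk RNA a lower level can mean fewer cells of a type or less RNA per cell, and these cannot be told apart.

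Wnt proteins are secreted, lipid-modified signals that bind Frizzled receptors on neighbouring cells. In the best known branch of the pathway they stop a cytoplasmic complex, built on Axin, from destroying beta-catenin, which then enters the nucleus and drives transcription with DNA-binding proteins of the Lef and Tcf family. Secreted inhibitors act outside the cell, either on the ligand or on its receptors, and several of them are themselves switched on by the pathway; in fin regeneration beta-catenin signalling is known to be required for outgrowth.

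Whole fins at 4 dpa differed from uninjured fins in all 9 genes. The 4 genes with the largest changes were dkk3b, lef1 and tcf7, each 9.07- to 10.6-fold higher, and wif1, 6.04-fold lower. In total 7 genes were higher and 2 were lower (edgeR adjusted p under 0.05). Of 11912 tested genes 65.5% were called in this comparison, 32.5% higher and 33% lower. The median log2 change of the 9 genes was 1.48, and that of all tested genes was -0.01. In sorted fibroblasts at 4 dpa, tcf7, dkk1b and dkk3b were higher, lef1, wif1 and notum1a were lower and the other 3 were not called, where 53.9% of 12011 tested genes were called, 27.8% higher and 26.2% lower. The count of 6 called among 9 lay near that background. The median log2 change of the 9 in fibroblasts was -0.03, against 0.00 for all genes. In both tissues wif1 and notum1a fell while dkk1b and dkk3b rose.

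**Figure D1:**
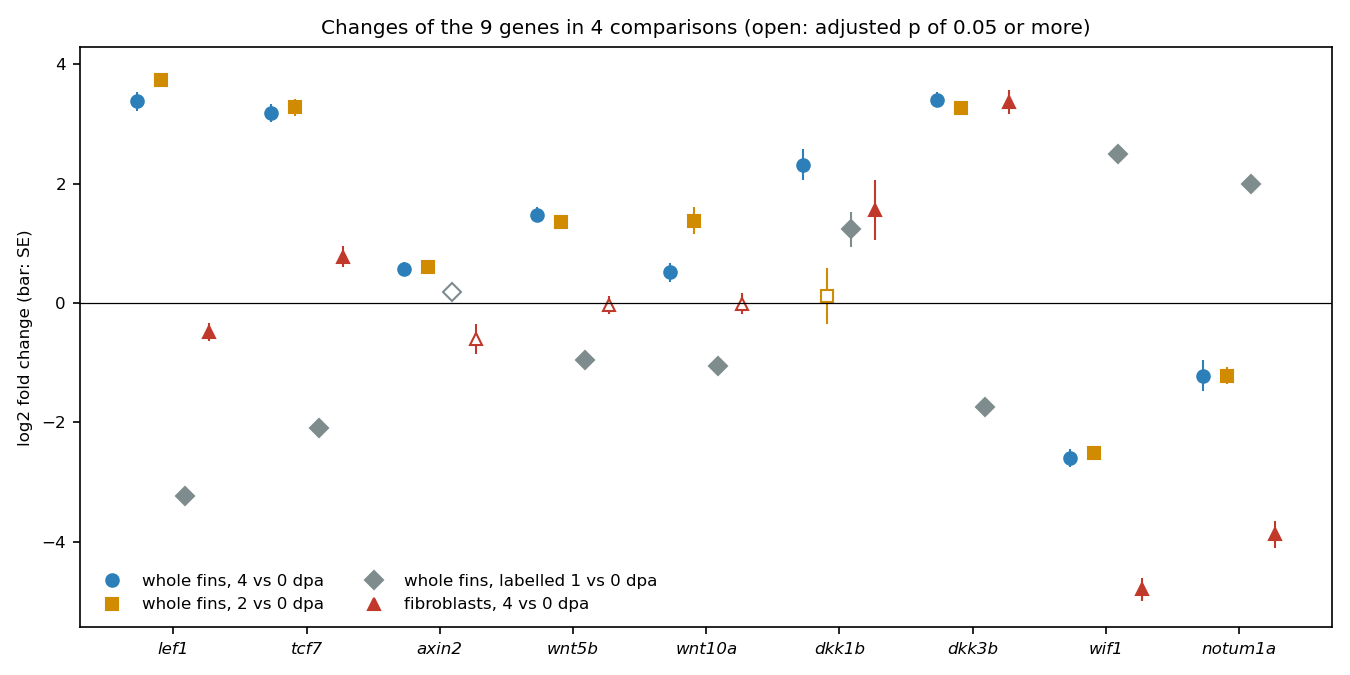
Log2 fold change of each of the 9 genes in 4 comparisons, with bars for the standard error. Open symbols mark an adjusted p of 0.05 or more. The points for dkk3b sit at 3.26, 3.40 and 3.36 in whole fins at 2 and 4 dpa and in fibroblasts, while those of lef1 run from 3.73 in whole fins at 2 dpa to -0.49 in fibroblasts.

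Wnt5b acts mostly through branches that do not need beta-catenin, and is known in zebrafish as a restraint on fin regrowth when overexpressed. Its level in CPM, the count scaled to a common library total, was 19.5 and 23.2 in uninjured fins of batch 1 and 62.4 and 66.1 at 4 dpa. Both 4 dpa libraries stood well above both uninjured ones, a log2 change of 1.48 ± 0.13 (SE; edgeR adjusted p = 1.34e-05). In batch 3 whole fins it rose from 25.8 to 73.7 CPM in wild type and from 25.2 to 59.3 CPM in the LEN deletion between 0 and 2 dpa. Fibroblasts showed no such step. They held 64.9 and 56.0 CPM at 0 dpa and 56.5 and 54.2 CPM at 4 dpa, overlapping ranges with a log2 change of -0.03 ± 0.15 (edgeR adjusted p = 0.882). The fibroblast range at 0 dpa, 56.0 to 64.9 CPM, overlapped that of batch 1 whole fins at 4 dpa.

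Wnt10a is a ligand of the beta-catenin branch. It had a small step in batch 1, from 6.67 and 6.09 CPM at 0 dpa to 9.86 and 9.75 CPM at 4 dpa. Both later libraries were higher, with a log2 change of 0.52 ± 0.16 (edgeR adjusted p = 0.0156). That call was lost without replicate 2 of the 0 dpa libraries or without either 4 dpa library, with adjusted p from 0.0535 to 0.0825. At 2 dpa in batch 3 the step was larger, from 4.40 to 16.1 CPM in wild type and from 7.18 to 14.1 CPM in the deletion. Fibroblasts had 16.4 CPM in each library at 0 dpa and 14.5 and 16.0 CPM at 4 dpa. The times did not overlap, but the log2 change was -0.01 ± 0.18 (edgeR adjusted p = 0.960), and its sign depended on the scaling, being 0.31 with library size alone.

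Axin2 is a scaffold of the complex that destroys beta-catenin, is itself a target of the pathway and is widely read as a sign of its activity. It varied little between whole-fin libraries. Levels were 42.7 and 42.1 CPM at 0 dpa and 69.3 and 66.7 CPM at 4 dpa in batch 1, a log2 change of 0.58 ± 0.11 (edgeR adjusted p = 0.00143). The 4 single whole-fin libraries in batch 3 ran close to these, 41.5 and 43.7 CPM at 0 dpa and 66.2 and 65.7 CPM at 2 dpa. Sorted fibroblasts stood far higher, at 222 and 243 CPM at 0 dpa and at 103 and 185 CPM at 4 dpa. Both 4 dpa fibroblast libraries lay below both uninjured ones but far from each other. The log2 change of -0.60 ± 0.25 was not called (edgeR adjusted p = 0.0882). Without 4 dpa replicate 2 it became -1.04 (adjusted p = 0.0114), without either 0 dpa library it was also called, and without 4 dpa replicate 1 it was -0.25 (adjusted p = 0.398).

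Lef1 and tcf7 encode the DNA-binding partners of beta-catenin. For lef1, uninjured fins of batch 1 held 8.36 and 11.3 CPM and fins at 4 dpa 115 and 106 CPM. The groups lay far apart, a log2 change of 3.38 ± 0.16 or 10.4-fold (edgeR adjusted p = 4.27e-07). Batch 3 whole fins reached the highest lef1 levels of all libraries at 2 dpa, 223 CPM in wild type and 207 CPM in the deletion, from 16.9 and 15.1 CPM at 0 dpa. In fibroblasts the order was the opposite one. Their lef1 fell from 59.5 and 53.2 CPM to 37.6 and 37.7 CPM, a log2 change of -0.49 ± 0.15 (edgeR adjusted p = 0.0198). Scaling by library size alone gave -0.17 (adjusted p = 0.415), and leaving out 4 dpa replicate 1 or 2 also ended the call (adjusted p = 0.132 and 0.164).

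Tcf7 rose with lef1 in batch 1 whole fins, and in fibroblasts it rose while lef1 fell. Batch 1 levels were 4.76 and 5.68 CPM at 0 dpa and 51.8 and 50.7 CPM at 4 dpa, a log2 change of 3.18 ± 0.15 or 9.07-fold (edgeR adjusted p = 3.71e-07). Fibroblasts went from 19.7 and 17.7 CPM to 26.1 and 34.1 CPM, with no overlap between the times. That rise measured 0.78 ± 0.18 on the log2 scale (edgeR adjusted p = 0.00516) and was no longer called without 4 dpa replicate 2 (0.61, adjusted p = 0.0954). Counts of lef1 per count of tcf7 in the same library, a ratio that no scaling touches, were 3.00 to 3.02 in fibroblasts at 0 dpa and 1.11 to 1.44 at 4 dpa. In whole fins the ratio ran from 1.76 to 2.22 in the 4 libraries of batch 1, but moved in the other batches. It was 4.18 to 4.35 in batch 2 libraries labelled 0 dpa against 1.73 to 2.17 in those labelled 1 dpa. In the single libraries of batch 3 it went from 2.68 at 0 dpa to 4.22 at 2 dpa in the deletion. The wild type pair moved less, from 3.9 to 4.6.

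Dkk1b is a Dickkopf protein that blocks the Wnt coreceptors. It was the least counted of the 9 genes, with 10 to 19 counts in each single whole-fin library of batch 3. Levels in batch 1 were 0.74 and 0.86 CPM at 0 dpa and 4.29 and 4.37 CPM at 4 dpa. Both 4 dpa libraries stood above every other library of the series, with a log2 change of 2.31 ± 0.26 or 4.97-fold (edgeR adjusted p = 4.79e-05). Fibroblasts held 0.56 and 1.68 CPM at 0 dpa and 2.82 and 3.32 CPM at 4 dpa. The times did not overlap, and the log2 change of 1.56 ± 0.50 was called (edgeR adjusted p = 0.0285), but not without 4 dpa replicate 1 or 2 (adjusted p = 0.132 and 0.173). At 2 dpa in batch 3 no step was detectable at this depth, the ratio to 0 dpa being 1.29 in wild type (exact 95% interval 0.541 to 3.20) and 0.964 in the deletion (0.483 to 1.92).

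Dkk3b is a divergent member of the Dickkopf family whose effect on Wnt signalling is less settled. It had nearly the same fold in each tissue. Whole fins of batch 1 held 30.8 and 31.7 CPM at 0 dpa and 373 and 340.4 CPM at 4 dpa, a log2 change of 3.40 ± 0.13 (edgeR adjusted p = 2.26e-07). Fibroblasts held 60.1 and 85.4 CPM at 0 dpa and 678 and 722 CPM at 4 dpa, a log2 change of 3.36 ± 0.20 (edgeR adjusted p = 3.09e-06). No range overlapped another, and the 4 dpa fibroblasts were the highest libraries of the series for this gene. In batch 3 whole fins the 2 dpa libraries reached 296 CPM in wild type and 272 CPM in the deletion.

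Wif1 binds Wnt ligands outside the cell and keeps them from their receptors. It was the gene of the 9 with the widest span over the group means, 59.1-fold. Uninjured fins of batch 1 held 192 and 172 CPM and fins at 4 dpa 37.3 and 27.6 CPM. That fall, to levels far below either uninjured library, was -2.59 ± 0.16 on the log2 scale (edgeR adjusted p = 1.47e-06). Fibroblasts fell further, from 1039 and 1296 CPM at 0 dpa to 38.3 and 40.4 CPM at 4 dpa, a log2 change of -4.80 ± 0.19 or 27.8-fold lower (edgeR adjusted p = 6.13e-07). At 4 dpa the levels in fibroblasts and whole fins were thus close, and the tissues differed mainly at 0 dpa.

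Notum1a is an enzyme that strips Wnt proteins of the lipid they need, and is known as a feedback target of the pathway. It stood at 15.8 and 9.90 CPM in uninjured fins and at 7.03 and 4.85 CPM at 4 dpa in batch 1. The groups did not overlap, though the uninjured libraries differed from each other, and the log2 change was -1.22 ± 0.26 (edgeR adjusted p = 0.00376). Fibroblasts dropped from 78.0 and 102 CPM to 4.70 and 6.84 CPM. Their log2 change was -3.87 ± 0.23 or 14.6-fold lower (edgeR adjusted p = 4.11e-06). Batch 3 fins fell from 26.5 to 10.2 CPM in wild type and from 20.8 to 10.2 CPM in the deletion.

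**Figure D2:**
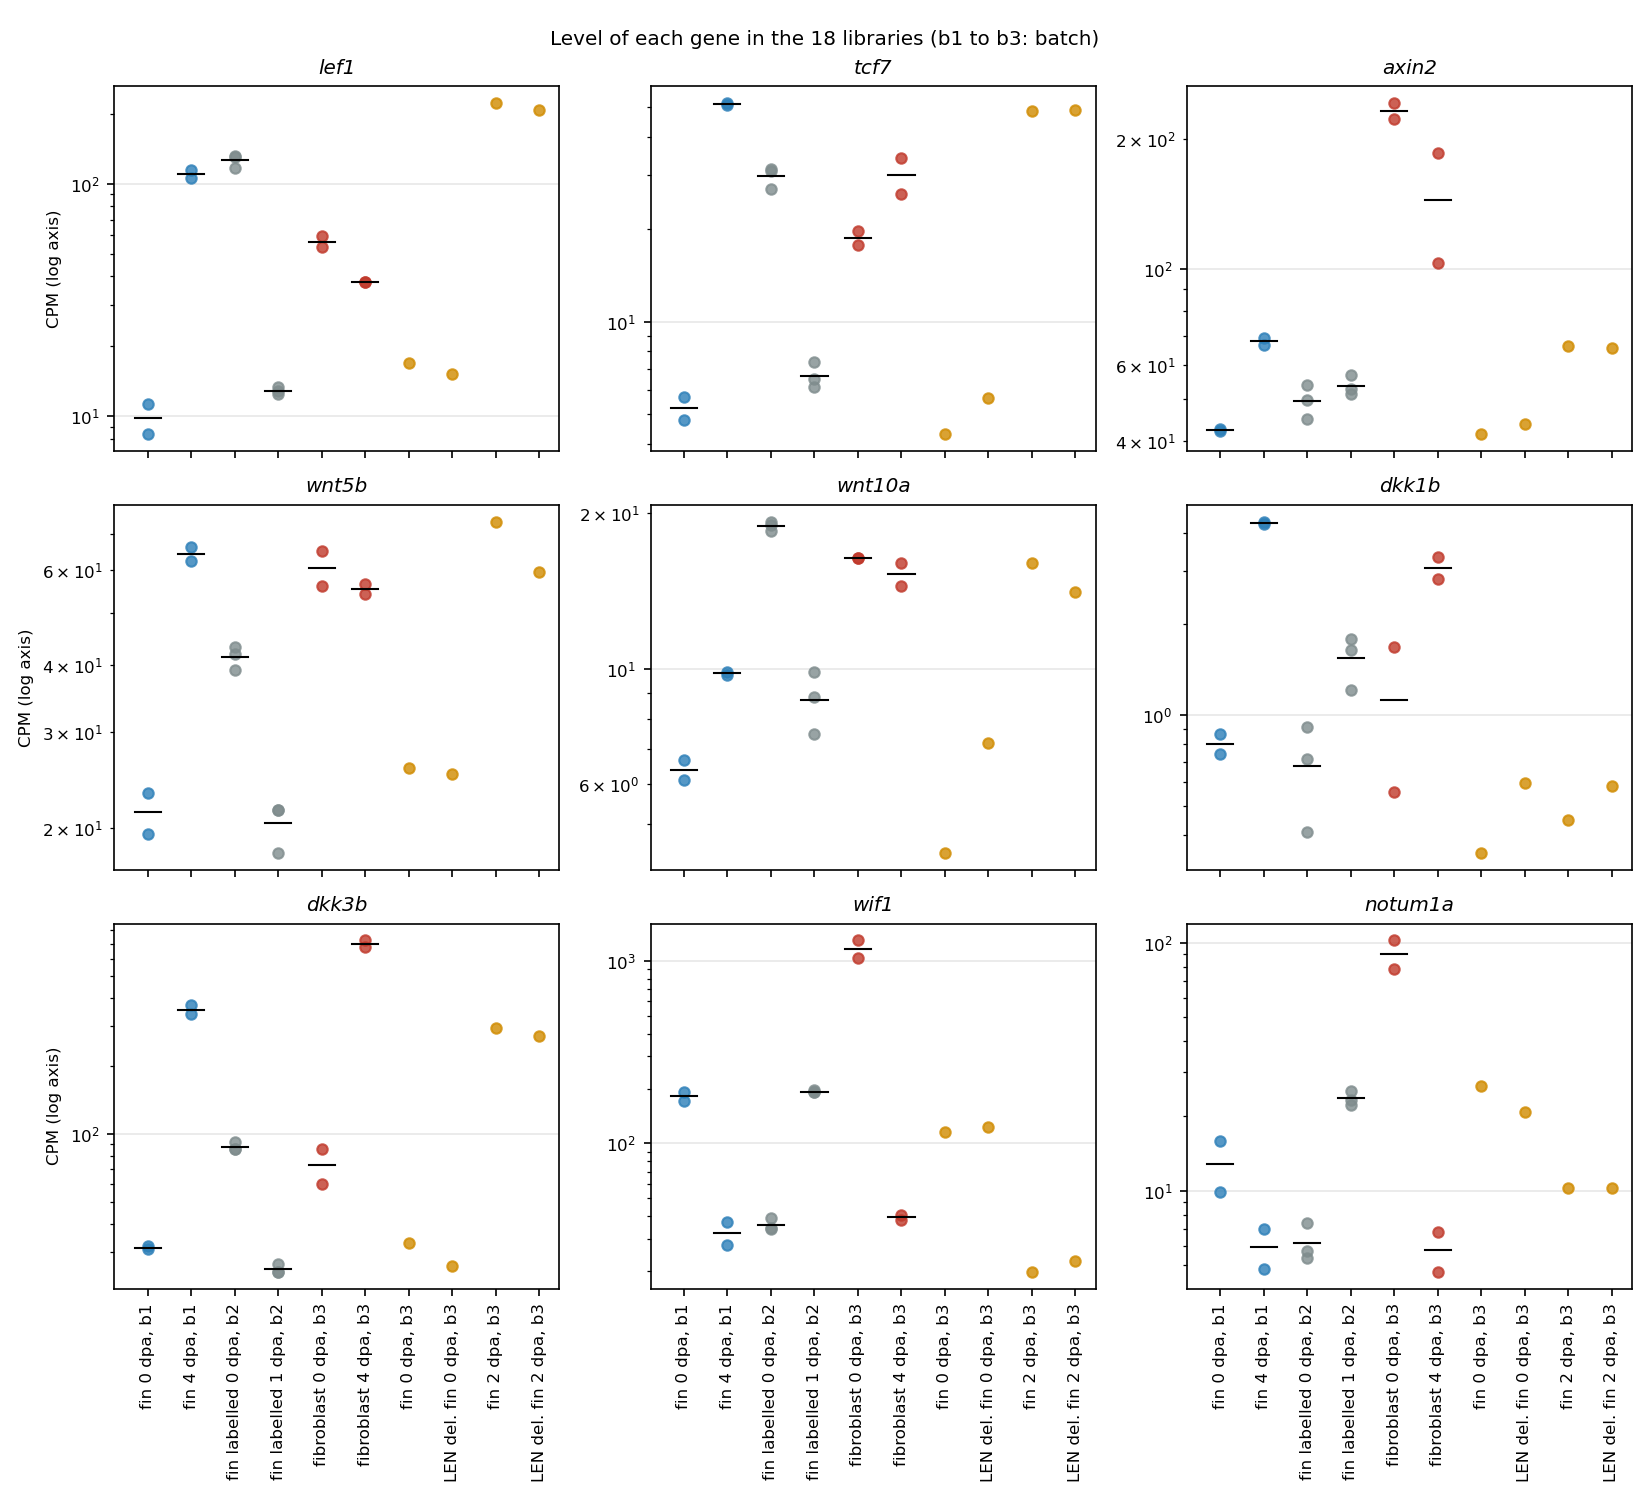
Level in CPM (log axis) of each gene in the 18 libraries, 1 point per library, with a black bar for the mean of groups with replicates. The highest points for wif1 and notum1a are the 0 dpa fibroblasts (1039 and 1296 CPM, and 78.0 and 102 CPM), and the highest for dkk3b are the 4 dpa fibroblasts (678 and 722 CPM).

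The time effect in batch 3 whole fins could be tested by taking wild type and deletion as a pair of replicates, with genotype as a block. This assumes that they respond alike and leaves 1 residual degree of freedom, so the spread is poorly known. For wnt10a the ratio of 2 to 0 dpa was 3.64 in wild type and 1.94 in the deletion. It was 2.86 and 2.32 for wnt5b and 9.01 and 10.4 for dkk3b, also with counting intervals apart. Single libraries cannot show whether the genotypes responded alike. At 2 dpa 6 of the 9 genes were higher, 2 were lower and dkk1b was not called, where 62.3% of 11873 tested genes were called, 31.2% higher and 31.1% lower. The log2 changes were 3.73 ± 0.11 for lef1, 3.28 ± 0.14 for tcf7 and 3.26 ± 0.12 for dkk3b. They were 1.36 ± 0.11 for wnt5b, 1.38 ± 0.23 for wnt10a and 0.61 ± 0.10 for axin2. For wif1 and notum1a they were -2.52 ± 0.11 and -1.22 ± 0.14, and the largest edgeR adjusted p among these 8 genes was 0.00153. These 2 dpa values lie close to those at 4 dpa in batch 1 for every gene but wnt10a and dkk1b; the batches were not tested against each other.

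The responses of the tissues were compared in a fit of batch 1 whole fins and batch 3 fibroblasts, which asked whether the change by 4 dpa was the same in both. Of the 9 genes 6 differed, all with the lower value in fibroblasts, where 36.3% of 12442 tested genes were called and 17.4% were lower. The difference in log2 change, fibroblasts minus whole fins, was -3.83 ± 0.23 for lef1 (edgeR adjusted p = 4.26e-06) and -2.37 ± 0.23 for tcf7 (4.90e-05). It was -1.47 ± 0.21 for wnt5b (edgeR adjusted p = 0.000362) and -1.14 ± 0.30 for axin2 (0.0160). For wif1 it was -2.17 ± 0.25 (edgeR adjusted p = 0.000119) and for notum1a -2.62 ± 0.39 (0.000991). Among the cell type lists, 8 of 9 fibroblast markers and 8 of 8 osteoblast markers were lower in the same contrast; their part was not tested. The axin2 call was lost without batch 1 0 dpa replicate 1 or 2 or 4 dpa replicate 1, with adjusted p of 0.0626, 0.0531 and 0.0515.

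The 3 genes that were not called differed among themselves. For dkk3b the difference was -0.01 ± 0.24 (edgeR adjusted p = 0.988), the closest match of the 9. For wnt10a it was -0.49 ± 0.22 (edgeR adjusted p = 0.106), and for dkk1b -0.72 ± 0.61 (0.394), a standard error too wide to show a difference of ordinary size. Leaving out fibroblast 0 dpa replicate 1 brought a call for wnt10a (-0.69, adjusted p = 0.0316) and for dkk1b (-1.51, adjusted p = 0.00993), and leaving out replicate 2 a call for wnt10a (-0.67, adjusted p = 0.0353). With TMM scaling 52.0% of all called genes lay higher in this contrast, and with library size alone 38.9%.

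**Figure D3:**
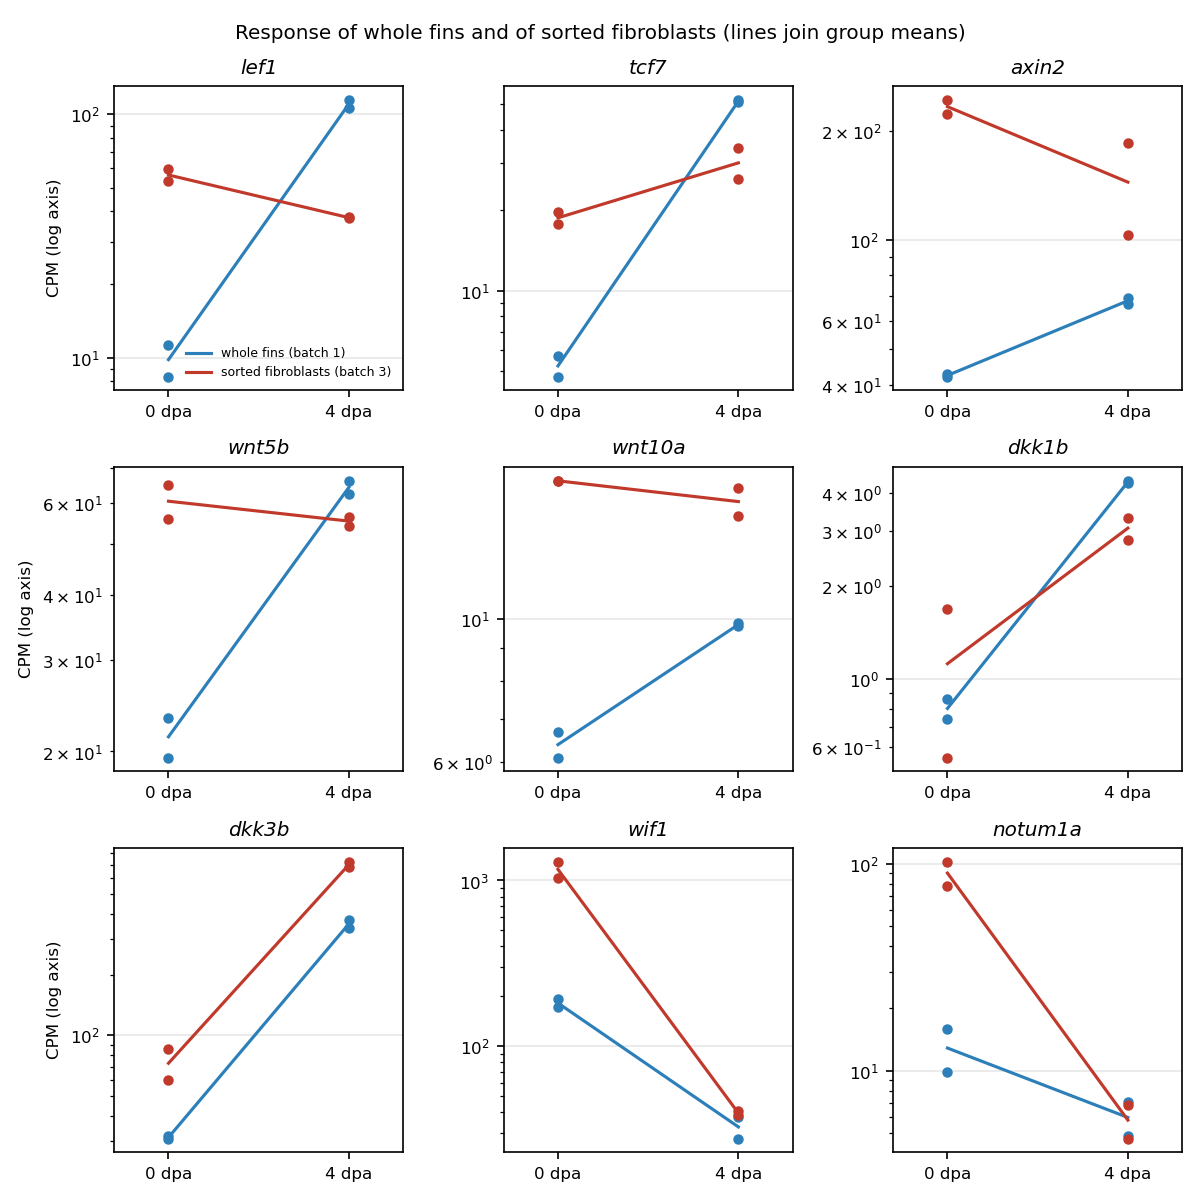
Level in CPM (log axis) of each gene at 0 and 4 dpa in whole fins of batch 1 (blue) and sorted fibroblasts of batch 3 (red), 1 point per library, lines joining group means. The lines for lef1 cross, as do those for tcf7, wnt5b, dkk1b and, just before 4 dpa, notum1a. Those for dkk3b run in parallel, and those for wif1 and notum1a start apart and come close at 4 dpa.

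At 0 dpa sorted fibroblasts carried more of 8 of the 9 genes than whole fins of batch 1, and dkk1b was not called. Of all genes 70.9% were called there and 35.1% were higher. The log2 differences were 2.73 ± 0.28 for notum1a, 2.60 ± 0.19 for wif1, 2.43 ± 0.17 for lef1 and 2.37 ± 0.23 for axin2. They were 1.75 ± 0.18 for tcf7, 1.41 ± 0.15 for wnt5b, 1.28 ± 0.16 for wnt10a and 1.13 ± 0.18 for dkk3b, with the largest edgeR adjusted p of the 8 at 0.000168. Tissue, strain, sort, batch, tamoxifen and the earlier clip with regrowth cannot be told apart in this test. The single uninjured whole-fin libraries of batch 3 itself held 116 and 123 CPM of wif1, against 1039 and 1296 CPM in fibroblasts of that batch. For notum1a they held 26.5 and 20.8 CPM against 78.0 and 102 CPM, and for axin2 41.5 and 43.7 CPM against 222 and 243 CPM. The dkk1b difference of 0.37 ± 0.49 (edgeR adjusted p = 0.510) became 1.03 without fibroblast replicate 1 (adjusted p = 0.0185) and -0.58 without replicate 2 (adjusted p = 0.245).

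At 4 dpa that gap was no longer called for wif1, notum1a and wnt5b and had reversed for lef1 and tcf7. For dkk3b it was nearly unchanged. Fibroblasts were higher in 3 genes and lower in 2, and 4 were not called, where 66.4% of genes were called, 36.3% higher and 30.1% lower. The higher ones were axin2 (1.23 ± 0.22 on the log2 scale), dkk3b (1.13 ± 0.17) and wnt10a (0.79 ± 0.15), and the lower ones were lef1 (-1.40 ± 0.16) and tcf7 (-0.62 ± 0.16). The tcf7 call was lost without fibroblast replicate 1 (-0.47, adjusted p = 0.0561). For wif1 the difference was 0.43 ± 0.18 (edgeR adjusted p = 0.0523) and was called without whole-fin 4 dpa replicate 1 (0.65, adjusted p = 0.0322). For wnt5b it was -0.06 ± 0.14, for dkk1b -0.34 ± 0.37 and for notum1a 0.11 ± 0.28.

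The fibroblast libraries also differed in other ways between the times. The summed level of the 9 stress genes (heat shock and immediate early genes) was 102831 to 138605 CPM at 0 dpa and 19069 to 21472 CPM at 4 dpa, with 9 of 9 lower, against 540.7 to 3627 CPM in whole fins. Epidermal markers summed to 16899 to 36295 CPM at 0 dpa and 4898 to 5282 CPM at 4 dpa, with 7 of 9 lower. The sum of the 9 fibroblast markers was 35523 to 35808 CPM at 0 dpa and 21331 to 26791 CPM at 4 dpa, against 2827 to 2908 and 12388 to 14818 CPM in batch 1 whole fins, and all 9 were higher in fibroblasts at 0 dpa. The sorted cells therefore bore the markers of their label, but not these alone. At 0 dpa 7 of 8 osteoblast markers were also higher in them than in batch 1 whole fins, and 1 was lower. The lower one was sp7, at 0.50 and 0.22 CPM in fibroblasts against 5.45 and 4.13 CPM in batch 1 whole fins. The osteoblast sums were 2252 to 2402.5 CPM against 538 to 666 CPM. In the fibroblast libraries tph1b itself stood at 5.70 and 6.57 CPM at 0 dpa against 203 CPM in each 4 dpa library. The injury gene lepb stood at 176 and 267 CPM in the uninjured fibroblasts, against at most 0.423 CPM in uninjured whole fins of batches 1 and 3. The part of these shifts in the changes of the 9 genes was not tested.

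Whole fins of batch 1 changed in makeup as well. From 0 to 4 dpa the sum of the 8 osteoblast markers went from 538 to 666 CPM to 13849 to 15786 CPM, with 5 higher, 1 lower, 2 not called and a median log2 change of 0.53. All 10 cell cycle genes and all 9 fibroblast markers rose, and 8 of 9 epidermal markers fell. Their part in the changes of the 9 genes was not tested. No defining marker of any of the 10 lists was at 0 in any group. Across the 18 libraries gene counts ran from 19427984 to 43871436.

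The 3 libraries labelled 0 dpa in batch 2 looked like injured fins in these genes and those labelled 1 dpa like uninjured ones. Of the 9 genes 3 were higher and 5 were lower in the libraries labelled 1 dpa, where 81.9% of 11851 tested genes were called, 42% higher and 39.9% lower. Lef1 stood at 117, 132 and 130 CPM in those labelled 0 dpa and at 12.8, 12.4 and 13.3 CPM in those labelled 1 dpa. The groups lay wholly apart, a log2 change from the label 0 to the label 1 of -3.24 ± 0.07 (edgeR adjusted p = 1.75e-09). Wif1 ran the other way, at 33.9, 34.5 and 39.1 CPM against 191, 196 and 191 CPM, a log2 change of 2.49 ± 0.06 (edgeR adjusted p = 3.66e-09). The deposited names of these libraries give the times the other way round from the labels. In the libraries labelled 0 dpa lepb stood at 31.4 to 44.5 CPM and tenascin C (tnc), a matrix gene of the regenerate, at 854 to 1020 CPM. Those labelled 1 dpa had at most 1 count of lepb and 15.0 to 17.5 CPM of tnc. Labels are followed here, and an exchange of the groups would turn each sign and leave each size as it is.

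Another 5 of the 9 genes split with lef1 or with wif1. Levels labelled 0 dpa against 1 dpa were 27.0, 31.4 and 31.0 against 7.39, 6.48 and 6.12 CPM for tcf7 and 85.5, 92.3 and 85.4 against 24.5, 24.4 and 26.6 CPM for dkk3b. For wnt5b they were 39.1, 41.8 and 43.1 against 21.6, 17.9 and 21.6 CPM, and for wnt10a 18.5 to 19.3 against 9.86, 7.49 and 8.81 CPM. Notum1a had 5.72, 5.36 and 7.42 against 22.2, 25.2 and 23.3 CPM. None of these ranges overlapped. The log2 changes were -2.10 ± 0.10 (tcf7), -1.74 ± 0.06 (dkk3b), -0.96 ± 0.08 (wnt5b), -1.05 ± 0.10 (wnt10a) and 2.00 ± 0.12 (notum1a), with the largest edgeR adjusted p at 1.03e-05.

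Dkk1b and axin2 stood apart from that picture. Dkk1b was at 0.41, 0.71 and 0.91 CPM in libraries labelled 0 dpa and at 1.64, 1.79 and 1.21 CPM in those labelled 1 dpa, a log2 change of 1.24 ± 0.29 (edgeR adjusted p = 0.00365). The sign is the same as that of wif1, whereas in batch 1 dkk1b and wif1 changed in opposite directions. Axin2 ranged from 45.0 to 53.8 CPM in libraries labelled 0 dpa and from 51.3 to 56.8 CPM in those labelled 1 dpa. These ranges overlapped, and its log2 change of 0.18 ± 0.07 was not called (edgeR adjusted p = 0.0501). It was called with library size alone (0.28, adjusted p = 0.0123), without replicate 3 labelled 0 dpa (0.23, adjusted p = 0.0145) and with replicate number as a block (0.18, adjusted p = 0.0323). Cell cycle genes were higher in the libraries labelled 0 dpa, 10 of 10, with sums of 1186 to 1335 against 141.5 to 221 CPM; their part was not tested. The leukocyte markers went the other way, with sums of 439 to 616 against 4646 to 5288 CPM, and their part was not tested either.

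The LEN deletion was compared with wild type in single libraries, so the intervals cover counting error only and there is no replicate check. The deletion was visible in lepb, with 3698 counts in wild type and 8 in the deletion at 2 dpa. Counting only genes whose higher library held 50 counts or more, which leaves out dkk1b, 0 of the 8 passed a 2-fold difference at either time, where 2.4% of genes did at 0 dpa and 0.858% at 2 dpa. At 2 dpa the ratio of deletion to wild type was 0.932 for lef1 (exact 95% interval 0.902 to 0.964) and 1.01 for tcf7 (0.946 to 1.09). It was 0.998 for axin2 (0.940 to 1.06), 0.922 for dkk3b (0.896 to 0.949), 1.15 for wif1 (1.03 to 1.28) and 1.01 for notum1a (0.863 to 1.17). The lowest was that of wnt5b, 0.810 (0.762 to 0.860), and wnt10a gave 0.883 (0.778 to 1.00). Before injury the ratios of the 8 genes ran from 0.798 for notum1a (0.718 to 0.887) to 1.66 for wnt10a (1.33 to 2.08).

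Seen within each genotype, 7 of the 8 genes changed at least 2-fold from 0 to 2 dpa in wild type and 6 in the deletion, against 26.8% and 29.2% of genes. The one that passed only in wild type was wnt10a, 3.64-fold higher there (exact 95% interval 2.99 to 4.46) and 1.94-fold higher in the deletion (1.65 to 2.28). Its levels at 2 dpa, 16.1 and 14.1 CPM, were closer to each other than its levels at 0 dpa, 4.40 and 7.18 CPM. Lef1 rose 13.2-fold in wild type (12.0 to 14.5) and 13.5-fold in the deletion (12.3 to 14.8).

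The 9 genes had their highest group mean in 5 of the 10 groups. Lef1 was highest in the 2 dpa whole fins of batch 3, followed by the libraries labelled 0 dpa in batch 2 (117 to 132 CPM) and the 4 dpa fins of batch 1 (106 to 115 CPM). Tcf7 was highest in 4 dpa fins of batch 1, at 50.7 to 51.8 CPM, with the 2 dpa fins of batch 3 at 48.6 and 49.1 CPM, and its fibroblasts at 4 dpa overlapped the libraries labelled 0 dpa. Axin2, wif1 and notum1a had their top in 0 dpa fibroblasts. The next groups for wif1 were the libraries labelled 1 dpa and the uninjured fins of batch 1, whose ranges overlapped. Dkk3b led in 4 dpa fibroblasts and dkk1b in 4 dpa fins of batch 1. Wnt5b was highest in the single wild type library at 2 dpa. The next groups, 4 dpa fins, 0 dpa fibroblasts and the deletion library at 2 dpa, overlapped their neighbours. Wnt10a led in the libraries labelled 0 dpa of batch 2, at 18.5 to 19.3 CPM.

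The span from the lowest to the highest group mean was 3.62-fold for wnt5b, 4.30-fold for wnt10a and 5.61-fold for axin2. It was 11.9-fold for tcf7, 12.4-fold for dkk1b, 15.6-fold for notum1a, 22.8-fold for lef1 and 27.8-fold for dkk3b. Replicates varied by a median coefficient of variation of 4.23% for wnt10a to 22.4% for notum1a over the 6 replicated groups. The widest single values were 71.1% for dkk1b, in 0 dpa fibroblasts, and 40.2% for axin2, in 4 dpa fibroblasts.

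Ratios of counts within a library need no scaling. The count of dkk3b per count of wif1 was 0.161 and 0.185 in uninjured fins of batch 1 and 9.99 and 12.3 at 4 dpa. In fibroblasts it went from 0.0579 and 0.0659 to 17.7 and 17.9. In the single whole-fin libraries of batch 3 it went from 0.284 and 0.210 to 15.0 and 12.0. Libraries labelled 0 dpa in batch 2 had 2.19 to 2.68 and those labelled 1 dpa 0.125 to 0.139. No library fell between 0.284 and 2.19. The ratio of lef1 to axin2 changed with time in batch 1 whole fins, rising from 0.196 and 0.268 to 1.59 and 1.66, and lay between 0.204 and 0.364 in all 4 fibroblast libraries. The fibroblast range overlapped that of uninjured whole fins of batch 1.

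**Figure D4:**
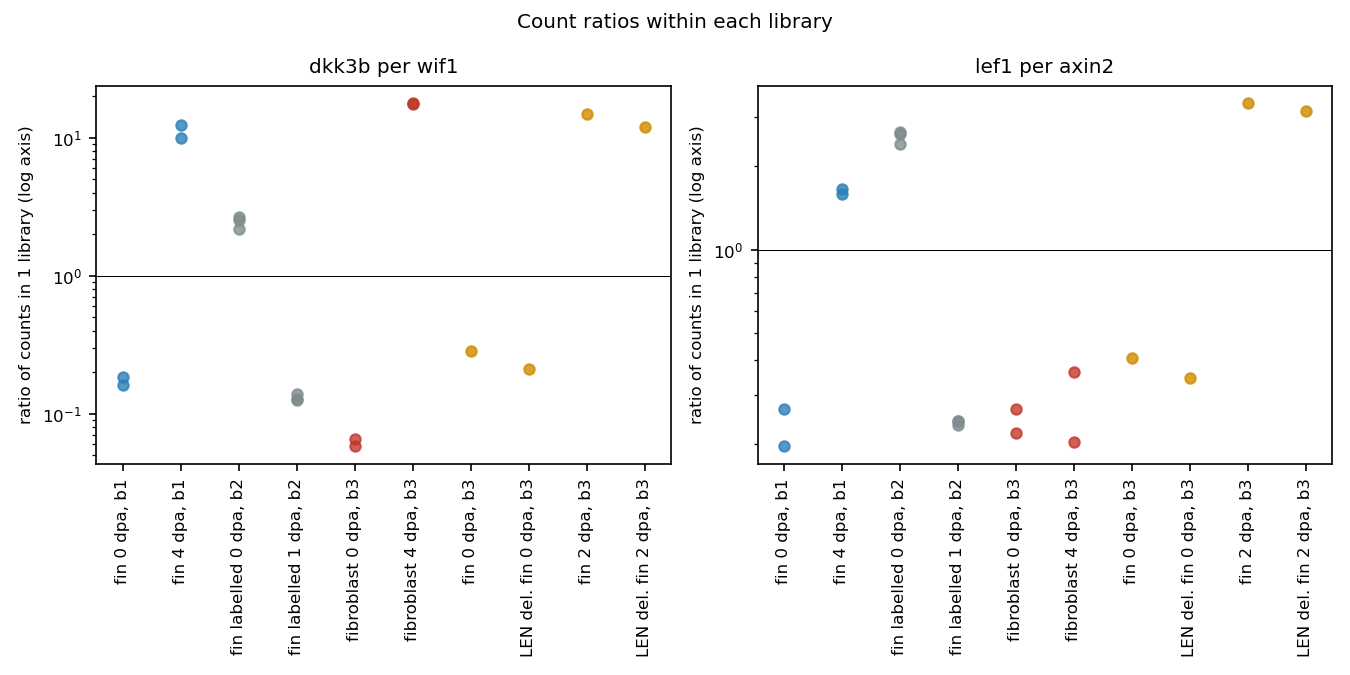
Ratio of counts within each library (log axis) for dkk3b per wif1 (left) and lef1 per axin2 (right), 1 point per library. The left ratio is under 1 at 0 dpa in batches 1 and 3 and in the batch 2 libraries labelled 1 dpa, and over 1 in all others, those labelled 0 dpa in batch 2 (2.19 to 2.68) among them; the right ratio stays under 1 in all fibroblasts.

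As a description over the 18 libraries, which share groups and batches, the closest pairs by Pearson correlation of log2(CPM + 0.5) were lef1 with tcf7 (r = 0.93), wif1 with notum1a (r = 0.91) and tcf7 with wnt5b (r = 0.91). Axin2 had its highest value with wnt5b (r = 0.61) and stood at 0.23 with lef1. The lowest pair was dkk3b with wif1 (r = -0.61). Among 9255 genes that averaged 5 CPM or more, the nearest to dkk3b were gpx7, porcnl and crtap (r = 0.98 each) and the nearest to wif1 were crhbp, pck1 and msrb3 (r = 0.98 each). Lef1 was nearest to LOC565175 (r = 0.98), chsy1 (r = 0.97) and bbs2 (r = 0.96), and tcf7 to kif2c, rrbp1b and snai1b (r = 0.96 each). For axin2 these were lrrc15 (r = 0.98), cdc14b and mxra8b (r = 0.97 each), for wnt5b tuba1a (r = 0.98), bcl2l10 and wdr34 (r = 0.97 each), and for wnt10a prickle1a (r = 0.96), phc2a (r = 0.93) and btbd6b (r = 0.92). Notum1a was nearest to sdprb (r = 0.96), crabp1b (r = 0.96) and gpm6ab (r = 0.95). Dkk1b had no close match, its nearest gene being vdac3 (r = 0.83), then si:ch211-106n13.3 (r = 0.82) and disc1 (r = 0.80).

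The wider pathway was read from a list of 97 Wnt genes found in the data, the 9 included. In batch 1 whole fins 36 of 87 tested rose and 24 fell by 4 dpa, 69.0% called with a median log2 change of 0.20, near the 65.5% and -0.01 of all genes. Library size alone gave 53 and 19 with a median of 0.67, where the median of all genes moved to 0.44. In fibroblasts 16 of 89 rose and 45 fell, 68.5% called with a median of -0.81, against 53.9% and 0.00. Without fibroblast 4 dpa replicate 2 the counts were 6 and 34. The response differed between the tissues in 51 of 90, 3 higher and 48 lower in fibroblasts, 56.7% called against 36.3% of all genes. The median was -0.88 against 0.07. In libraries labelled 1 dpa of batch 2, 41 of 87 were higher and 33 lower, 85.1% called against 81.9%. At 2 dpa in batch 3, 34 of 89 rose and 28 fell, 69.7% called against 62.3% of all genes.

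Secreted modulators, the class of dkk1b, dkk3b, wif1 and notum1a, listed with the membrane protein gene kremen1, stood high in uninjured fibroblasts. There 17 of 20 were higher than in whole fins and 1 lower, where 70.9% of all genes were called, 35.1% higher and 35.8% lower. The median log2 difference was 2.56 against -0.02 for all genes. The counts were 17 and 1 with library size alone as well. At 4 dpa 11 of the 20 were still higher in fibroblasts than in whole fins and 2 lower, with a median of 0.95. Of all genes 66.4% were called in that contrast, 36.3% higher and 30.1% lower. Library size alone gave 9 higher and 2 lower. By 4 dpa 14 of the 20 had fallen in fibroblasts and 4 had risen, with a median of -1.37. Of all genes 53.9% were called there, 26.2% lower and 27.8% higher. The fall of the Dickkopf gene dkk2 was -5.34 ± 0.23 on the log2 scale (edgeR adjusted p = 7.98e-07) and that of frzb, a secreted Frizzled-related protein, -3.28 ± 0.20 (3.44e-06). In batch 1 whole fins dkk2 and frzb also fell, with log2 changes of -3.93 ± 0.34 and -2.07 ± 0.20. In the class as a whole, however, 10 of 19 rose there and 6 fell. Of all genes 65.5% were called, 32.5% higher and 33% lower. At 2 dpa in batch 3 whole fins the balance was the opposite, 5 of 19 higher and 10 lower with a median of -1.22. There 62.3% of all genes were called, 31.2% higher and 31.1% lower. In batch 2, 17 of 18 were higher in libraries labelled 1 dpa, where 81.9% of all genes were called, 42% higher and 39.9% lower. The 17 included frzb (4.34 ± 0.11) and rspo1, an R-spondin that strengthens Wnt signals (3.19 ± 0.11).

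Of the ligands and proteins of their secretion 6 of 15 rose and 4 fell in batch 1, 66.7% called, near the 65.5% of all genes. The ligand gene wnt3a fell from 8.90 ± 1.36 to 1.90 ± 0.01 CPM (SD, n = 2; log2 change -2.33 ± 0.20 SE, edgeR adjusted p = 1.07e-05). Its relative wnt16 rose from 1.80 ± 0.60 to 7.65 ± 0.15 CPM (log2 change 1.96 ± 0.24, edgeR adjusted p = 8.48e-05). Fibroblasts had 9 of 16 lower and 2 higher, where 53.9% of all genes were called, 26.2% lower and 27.8% higher. Fewer of these ligand genes were called with either 4 dpa library left out. Among the lower was wnt4a, which fell from 39.4 ± 10.3 to 1.13 ± 0.64 CPM (log2 change -5.02 ± 0.44, edgeR adjusted p = 0.000250). For the ligand gene wnt9b the log2 change there was -2.87 ± 0.41. Both genes were also lower at 4 dpa in batch 1 whole fins, wnt4a with a log2 change of -1.33 ± 0.24 and wnt9b with -1.19 ± 0.27 (edgeR adjusted p = 0.000972 and 0.00335). In libraries labelled 1 dpa of batch 2, wnt16 was 2.79 ± 0.26 higher and wls, which carries Wnt proteins to the cell surface, 0.42 ± 0.06 lower on the log2 scale. The wnt16 levels were low there, 1.22 CPM on average against 0.18 CPM in libraries labelled 0 dpa.

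Of 18 genes for receptors and other membrane proteins, 3 were higher and 6 lower in batch 1, 50% called against 65.5% of all genes. Library size alone turned this to 8 higher and 5 lower. The Frizzled genes fzd9b and fzd2 rose by 2.36 ± 0.14 and 1.48 ± 0.12 on the log2 scale (edgeR adjusted p = 1.15e-06 and 6.95e-06). Fibroblasts had 11 of 18 lower and 1 higher, where 53.9% of all genes were called, 26.2% lower and 27.8% higher. Library size alone gave 8 lower and 3 higher in fibroblasts, and fewer were called with either 4 dpa library left out. There fzd8a fell from 77.0 ± 0.428 to 16.5 ± 1.52 CPM and vangl1, a membrane protein of planar cell polarity, from 14.5 ± 1.38 to 2.76 ± 0.16 CPM. In batch 2 fzd7a and fzd3a were higher in libraries labelled 1 dpa, by 2.78 ± 0.12 and 1.72 ± 0.09 on the log2 scale.

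Of 17 cytoplasmic genes 9 rose and 3 fell in batch 1, 70.6% called, near the 65.5% of all genes, and library size alone gave 14 and 2. The beta-catenin gene ctnnb2 went from 134 ± 3.09 to 533 ± 46.7 CPM (log2 change 1.88 ± 0.14, edgeR adjusted p = 4.31e-06), and daam1b, a formin that works below Dishevelled, from 35.8 ± 0.09 to 107 ± 7.76 CPM. In fibroblasts 5 of 17 rose and 3 fell, 47.1% called against 53.9% of all genes, with no stable balance. DESeq2 size factors gave 5 and 5, and leaving out either 4 dpa library also changed the counts. There ctnnb2 rose from 276 ± 7.28 to 592 ± 83.9 CPM, and gsk3aa, a gene for a kinase of the class that marks beta-catenin for destruction, fell from 20.2 ± 1.28 to 6.96 ± 0.61 CPM. The libraries labelled 0 dpa in batch 2 held 981 ± 23.3 CPM of ctnnb2 against 137 ± 0.389 CPM, and 605 ± 32.7 CPM of daam1b against 24.3 ± 1.17 CPM.

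Nuclear genes, the class of lef1 and tcf7, had 6 of 12 higher and 2 lower in batch 1, 66.7% called, near the 65.5% of all genes. In fibroblasts 4 went each way, 66.7% called against 53.9% of all genes. Library size alone gave 5 higher and 1 lower there, and leaving out either 4 dpa library also changed the counts. The Groucho-type corepressor gene tle2 rose in both, by 1.57 ± 0.14 in whole fins and 1.06 ± 0.19 in fibroblasts on the log2 scale, while its relative tle3b fell by 1.11 ± 0.15 in fibroblasts. In whole fins tcf7l1b, a Tcf gene best known as a repressor, rose by 0.81 ± 0.13. The beta-catenin coactivators bcl9 and pygo2 were 0.72 ± 0.04 and 1.09 ± 0.07 lower in libraries labelled 1 dpa of batch 2.

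Other targets split. In batch 1, 2 of 6 rose and 3 fell, where 65.5% of all genes were called, 32.5% higher and 33% lower. Library size alone gave 3 higher and 2 lower. The proto-oncogene myca rose by 0.92 ± 0.12 on the log2 scale and mycb fell by 1.39 ± 0.20. Fibroblasts had 4 of 6 lower and none higher, where 53.9% of all genes were called, 26.2% lower and 27.8% higher. There mycb dropped from 1805 ± 219 to 87.8 ± 7.30 CPM (log2 change -4.26 ± 0.20, edgeR adjusted p = 8.65e-07) and the transcription factor gene sp8b from 17.0 ± 6.94 to 3.93 ± 0.69 CPM, beside the fall in stress genes given above. In batch 2 sp5a and sp8a were higher in libraries labelled 1 dpa, by 0.94 ± 0.11 and 1.00 ± 0.11.

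**Figure D5:**
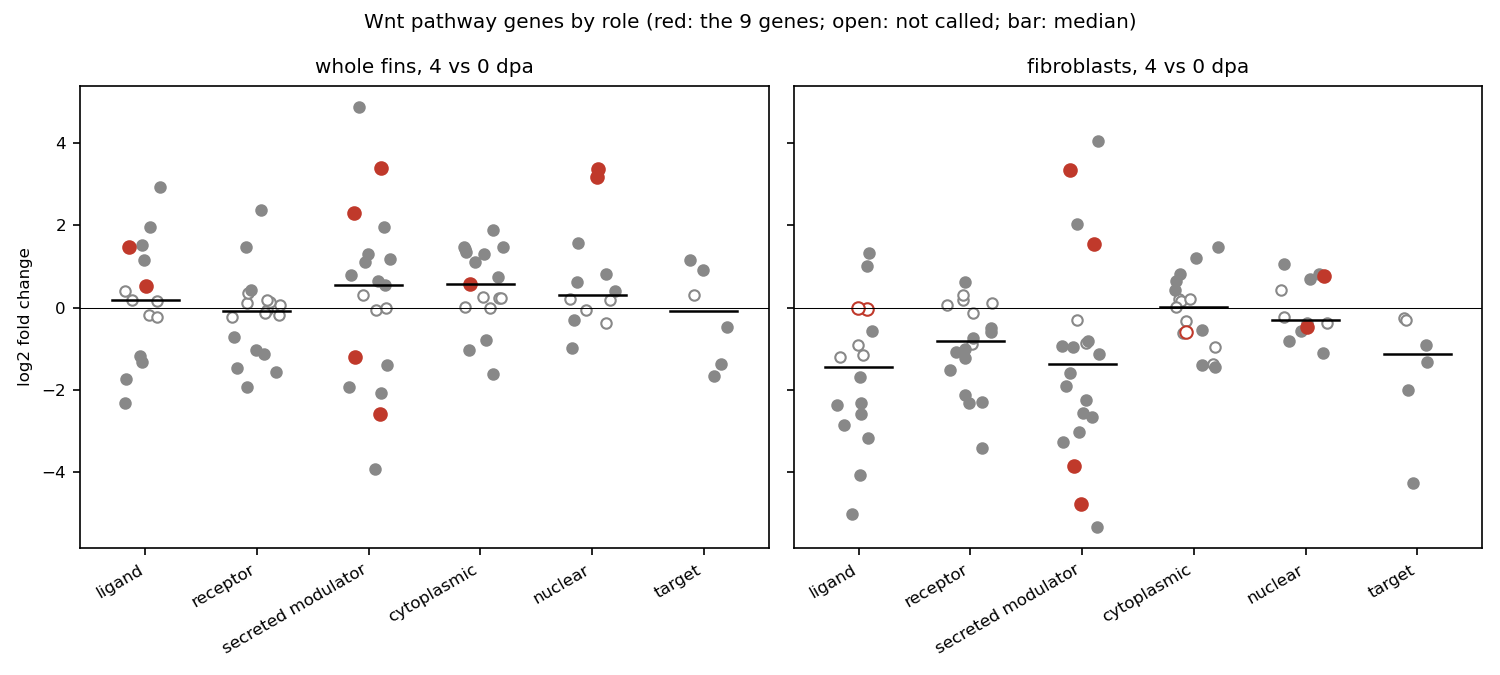
Log2 fold change at 4 against 0 dpa of the tested Wnt list genes by role, in whole fins of batch 1 (left) and fibroblasts (right). Red points are the 9 genes, open points were not called and bars are medians, which for secreted modulators are 0.54 on the left and -1.37 on the right.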

How the data were processed

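RNA was measured by sequencing in 18 libraries; the 18 accessibility samples of the series were not analysed here. The values are raw counts of reads per gene, deposited by the authors as 1 file per library, and 5 summary rows in each file stayed out of all totals. Reads without a feature came to 26.5% to 39.0% and ambiguous reads to 0.246% to 0.645%. Per the submitters' processing notes the tools included Trim Galore 0.4.1 and 0.6.4, TopHat2 2.1.1, Bowtie2 2.2.5, SAMtools 1.5, Picard 1.91 and HTSeq 1.6.1, with the genome build danRer10. The order of these steps, the gene annotation and the strand setting were not given in the sources used here. Gene counts were 19427984 to 43871436 per library.

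Groups and times follow the labels. Counts were tested in edgeR 4.0.16 (R 4.3.3) with TMM scaling, its expression filter and the robust quasi-likelihood F test, two-sided, with Benjamini-Hochberg adjustment over all tested genes and a threshold of 0.05. Every adjusted p in the text comes from edgeR unless DESeq2 is named. The SE is the log2 change divided by the root of F. The scripts were tested on simulated data. CPM levels use TMM factors of all 18 libraries, so their ratios can differ slightly from fitted folds. Single libraries were compared by ratios with exact conditional 95% intervals, which cover counting error only. Replicates differed by more than sampling noise, so all were kept as separate samples.

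The text names the 9 genes in every comparison; from a Wnt list, up to 2 other called genes of smallest p per role in each of the 3 comparisons between times or labels within a batch; and the 3 genes nearest to each of the 9 by Pearson correlation. For wnt4a and wnt9b, picked in fibroblasts, the batch 1 whole-fin values are given as well. The 9 genes and the lists were chosen with earlier results of these data known. Alternatives were DESeq2 1.42.0 and its size factors, library size alone, no filter, 1 fit of all replicated groups, each replicate left out and replicate number as a block.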

Additional observations from a re-analysis of the deposited data

Results flagged for a closer look

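For 6 of the 9 genes the change from 0 to 4 dpa differed between sorted fibroblasts and whole fins by a test of the difference itself. In log2 units, fibroblasts minus whole fins, the differences were -3.83 for lef1, -2.37 for tcf7, -1.47 for wnt5b and -1.14 for axin2, and -2.17 for wif1 and -2.62 for notum1a. The first 3 rose in whole fins and fell, rose less or were not called in fibroblasts, axin2 rose in whole fins and was not called in fibroblasts, and the last 2 fell further in fibroblasts. The fibroblasts were sequenced in batch 3 and the whole fins in batch 1. Only the fibroblast labels give tamoxifen and an earlier clip with regrowth. Tissue, sort, strain, batch, tamoxifen and that clip therefore cannot be told apart.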

How the results depend on the processing

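Of 711 alternative values for the 9 genes, 663 counted as unchanged. For tests this meant the same direction and call. For the LEN deletion ratios, which have no call, it meant a value inside the exact interval. All 384 for the other named Wnt genes kept direction and call. Those genes had been picked as the called genes of smallest p in these comparisons, so this is no independent check. Signs turned in values that were not called. In fibroblasts library size alone gave 0.29 for wnt5b and 0.31 for wnt10a, and no filter gave 0.0026 for wnt10a; leaving out single libraries gave -0.15 to 0.045 for wnt5b and -0.047 to 0.044 for wnt10a. In the difference of responses dkk1b ran from -1.51 to 0.10 and dkk3b from -0.43 to 0.093. Between tissues dkk1b ran from -0.58 to 1.03 at 0 dpa, and notum1a from -0.16 to 0.38 at 4 dpa, with -0.15 under library size alone and -0.036 in the fit of all groups. The cause was not tested. Genes called in fibroblasts numbered 6477 and, with single libraries left out, 3827 (without 4 dpa replicate 1) to 7525; without 4 dpa replicate 2 they numbered 4026. Wnt list calls there went from 61 to between 40 and 70, and genes called for the difference of responses from 4511 to between 2971 (without whole-fin 4 dpa replicate 1) and 5167. Fewer samples entered these fits, and a lone library was assumed to vary like the other group. Library size alone moved the median log2 change of all genes from -0.01 to 0.44 in batch 1 (49.7% to 72.7% of calls higher), from 0.00 to 0.32 in fibroblasts (51.5% to 67.7%), from 0.10 to -0.16 between tissues at 4 dpa (54.7% to 42.9%) and from 0.07 to -0.11 in the difference of responses. In fibroblasts axin2 was called under DESeq2 (adjusted p = 0.0475), in the fit of all groups (edgeR adjusted p = 0.00599) and with the replicate block (-0.65, edgeR adjusted p = 0.0174), and wnt10a in the fit of all groups for the difference of responses (-0.73, edgeR adjusted p = 0.00526). The wif1 ratio of LEN deletion to wild type at 0 dpa was 1.08, and 1.14 with library size alone. Replicate numbers did not pair the samples: same-numbered libraries correlated at 0.03 in batch 1, -0.10 to 0.06 in batch 2 and 0.08 in fibroblasts. The replicate block called 7757, 9522 and 6475 genes there, against 7805, 9711 and 6477. Depth limits dkk1b most, with 10 to 162 counts per library.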
